A study of Mus musculus with 15 samples.

Results

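The mitosis genes described here are 44 genes of the late cell cycle, chosen by name for their work in entry into mitosis, the spindle, chromosome segregation and cytokinesis. All 44 were found by symbol among the 22063 genes of the deposited table, and all 44 were among the 12917 genes that had at least 1 FPKM (fragments per kilobase, corrected for sequencing depth) in at least 5 libraries and were therefore tested. They were measured by RNA sequencing of polyadenylated RNA from the colon of wild-type C57BL/6 mice. The WMW-H group had 5 libraries from mice of the AOM/DSS cancer model that were given WMW-H, a treatment that the series title ties to the herbal formula Wumei Wan. The AOM/DSS group had 5 libraries from the model alone, in which the carcinogen azoxymethane (AOM) and the colitis-inducing polymer dextran sulfate sodium (DSS) are used to induce colorectal tumours. The Control group had 5 libraries from blank control mice. The dose and duration of WMW-H and the age and sex of the mice are not stated in the labels.

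A dividing cell switches on most of these genes together, late in the cell cycle, and degrades many of their products when division ends. Cyclin-dependent kinase CDK1 with its cyclins drives entry into mitosis, condensin compacts the chromosomes, and motors and kinases build the spindle. The spindle checkpoint then holds the anaphase promoting complex back until every kinetochore is attached, after which cohesin is cut and the cell divides. In the colon, dividing cells are found mainly in the lower part of the crypts, as stem and transit amplifying cells, and levels of these genes are often read as a measure of proliferation. In bulk RNA of a tissue, fewer cells of a type and less RNA per cell cannot be told apart.

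The libraries held 16300000 to 21100000 fragments, as read from the steps between low FPKM values. The labels name colon epithelial cells, but the protocols describe no isolation of them, and the summed FPKM of 12 epithelial markers was 6367 to 6664 in WMW-H, 7660 to 7775 in AOM/DSS and 7618 to 7707 in Control libraries. RNA of other tissues was present. The 19 pancreas genes found summed to 10780 to 11320 FPKM in WMW-H, 6418 to 6632 in AOM/DSS and 26950 to 27590 in Control libraries. The insulin genes Ins1 and Ins2 were listed at 0 in every AOM/DSS library. The 9 male accessory gland genes found summed to at most 4.31 FPKM in WMW-H, to 2614 to 2750 FPKM in AOM/DSS and to at most 3.48 FPKM in Control libraries. Their part in the results was not tested beyond rescaling the libraries without both lists. Pairs of WMW-H libraries had a chi-square per gene of 2.82 to 45.5, where pairs of AOM/DSS libraries reached 4.08 and pairs of Control libraries 3.75. The libraries that formed the highest pair were not recorded. The median variance of single-transcript genes differed less, at 2.22 (WMW-H), 1.65 (AOM/DSS) and 1.87 (Control) times that of counting. The labels do not say that the libraries of a group came from separate animals, so p-values measure only the spread between these libraries, which may be technical.

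The mitosis genes were called in both directions in each of the 3 comparisons, and no member's log2 change was beyond -0.57 or 0.42. In WMW-H against Control, more members were called lower than higher, unlike all tested genes. Changes were tested with limma on log2(FPKM + 1) over all tested genes, with p-values adjusted over all of them and called at an adjusted p under 0.05. Log2 changes are on that scale and are given ± SE, and mean levels in FPKM are given ± SD, with n = 5 libraries per group. In AOM/DSS against Control libraries, 10 members were higher, 11 were lower and 23 were not called, so that 47.7% of the members were called against 66.1% of all tested genes. Higher calls made up 22.7% of members and 45.5% of all genes, and lower calls 25% of members and 20.6% of all genes. The median log2 change of the members was 0.015, where that of all genes was 0.117, and their median absolute log2 change was 0.154, where that of all genes was 0.229.

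In WMW-H against AOM/DSS libraries, 7 members were higher, 17 were lower and 20 were not called. This was 54.5% of the members called against 66.8% of all genes. Higher calls made up 15.9% of members and 25.9% of all genes, and lower calls 38.6% of members and 40.9% of all genes. The median log2 change was -0.057 for the members and -0.075 for all genes. In WMW-H against Control libraries, 5 members were higher, 18 were lower and 21 were not called. This was 52.3% of the members called against 59.5% of all genes. Higher calls made up 11.4% of members and 35.4% of all genes, and lower calls 40.9% of members and 24.1% of all genes. The median log2 change was -0.074 for the members and 0.050 for all genes. Without the third WMW-H library the counts were 8 higher and 18 lower against AOM/DSS, and 8 higher and 17 lower against Control. The 3 comparisons share libraries, so the members' values are given side by side and no overlap between comparisons is counted.

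**Figure D1:**
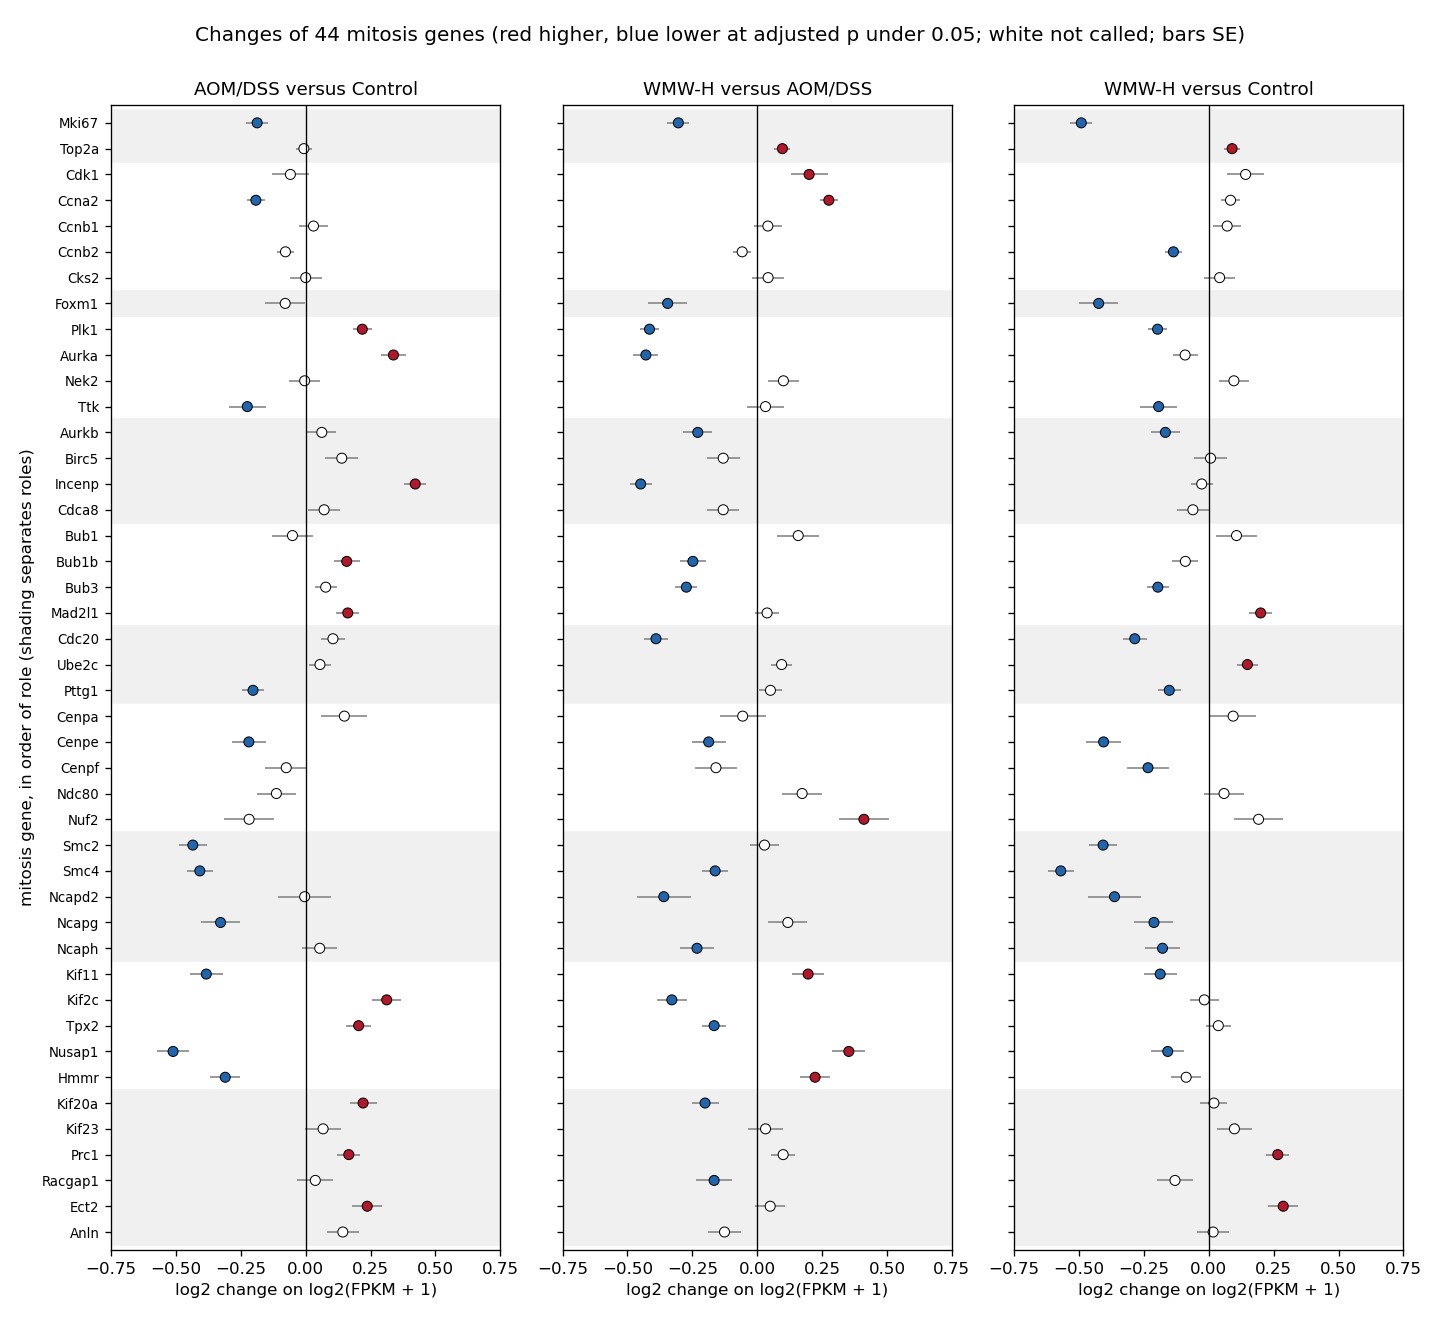
Log2 change on log2(FPKM + 1) of each of the 44 mitosis genes in the 3 comparisons, with the standard error as a bar, n = 5 libraries per group; red points were higher and blue points lower at an adjusted p under 0.05, and white points were not called. Points lie on both sides of 0 in each comparison, between -0.57 and 0.42, and all 5 condensin genes lie below 0 in WMW-H versus Control.

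With a further requirement of a log2 change of at least 0.32 in either direction, 2 members were higher and 5 lower in AOM/DSS against Control, against 23.8% and 11.1% of all genes. By the same rule 2 were higher and 7 lower in WMW-H against AOM/DSS, against 13.5% and 21.7% of all genes, and 0 were higher and 6 lower in WMW-H against Control, against 17.3% and 9.28% of all genes. Groups were wholly separate for 16 members in AOM/DSS against Control (52.9% of all genes), for 17 in WMW-H against AOM/DSS (51.2%) and for 14 in WMW-H against Control (42.3%). Summed over the 44 genes, the level was 575.8 ± 7.93 FPKM in WMW-H, 609.6 ± 8.51 FPKM in AOM/DSS and 600.2 ± 5.38 FPKM in Control libraries (SD, n = 5 each). The WMW-H sums ran from 565.0 to 587.1 FPKM, below every AOM/DSS sum (600.2 to 622.6 FPKM) and every Control sum (593.3 to 605.8 FPKM), while the AOM/DSS and Control sums overlapped. The order of WMW-H and AOM/DSS depended on the scaling, with a log2 ratio of the sums of -0.082 as deposited, -0.013 with size factors and 0.009 with quantile normalization. No test was made on these sums because the members were chosen with earlier results of these data known.

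**Figure D2:**
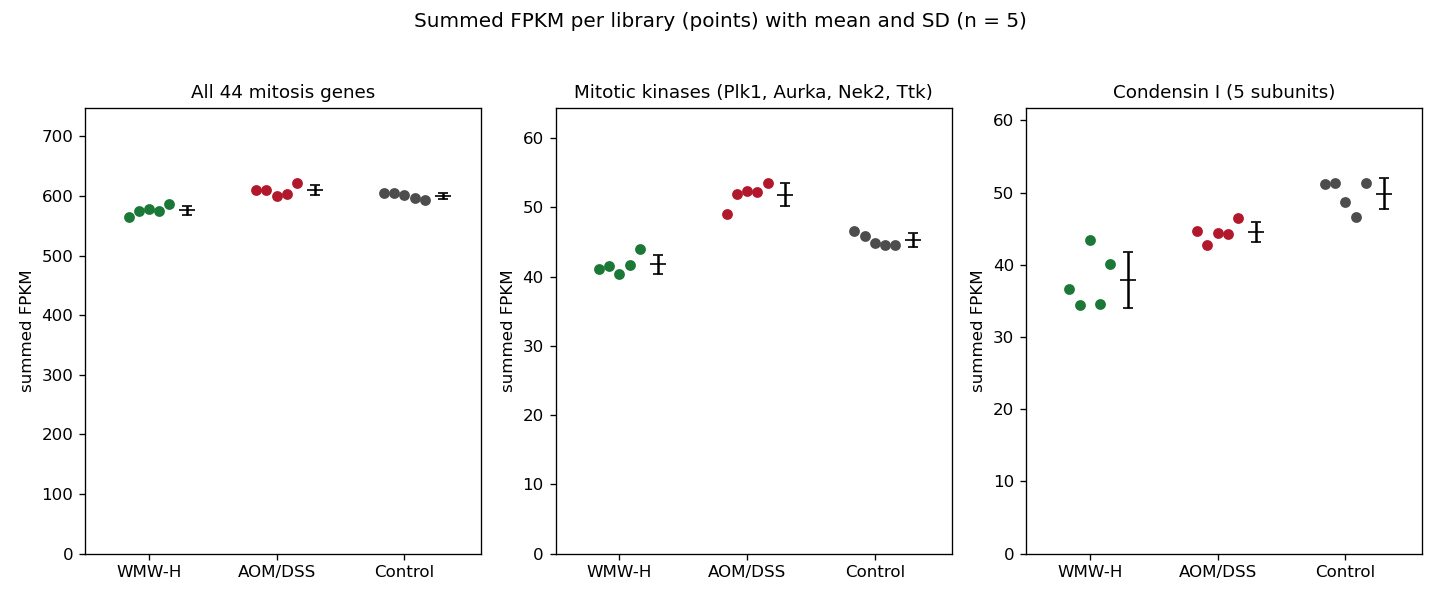
Summed FPKM per library (points), with the mean and SD (n = 5), for all 44 mitosis genes, for the 4 mitotic kinases and for the 5 condensin I genes. The summed kinases averaged 41.8 FPKM in WMW-H, 51.8 FPKM in AOM/DSS and 45.3 FPKM in Control libraries, and the summed condensin genes 37.9, 44.5 and 49.8 FPKM in the same groups. The condensin sums of WMW-H (34.5 to 43.5 FPKM) and AOM/DSS (42.7 to 46.5 FPKM) overlapped. Roles not drawn had other orders. The cyclin-dependent kinase engine averaged 119.1 ± 4.28, 110.7 ± 2.98 and 115.8 ± 2.16 FPKM, and the kinetochore genes 28.4 ± 2.52, 27.9 ± 1.08 and 27.6 ± 1.86 FPKM.

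Markers of the cells in which these genes are usually active also differed. Of 10 genes of crypt stem and transit amplifying cells, 7 were higher and 3 lower in AOM/DSS than in Control, and 4 were higher and 6 lower in WMW-H than in AOM/DSS, with a median log2 change of -0.192. Among the 6, the log2 change in WMW-H against AOM/DSS was -1.23 ± 0.07 (adjusted p = 9.86e-11) for the Wnt target Axin2, -0.96 ± 0.08 (adjusted p = 9.29e-09) for Ascl2, -0.68 ± 0.07 (adjusted p = 1.16e-07) for the stem cell receptor Lgr5 and -0.56 ± 0.04 (adjusted p = 2.83e-09) for Smoc2. The 4 genes higher in WMW-H than in AOM/DSS, among them Prom1, went the other way, and the summed FPKM of the 10 genes overlapped between these groups. The lower genes named here therefore do not stand for the list. The sum was 320.8 to 350.6 in WMW-H, 332.3 to 344.2 in AOM/DSS and 240.9 to 248.8 in Control libraries. Prom1 alone averaged 162 ± 6.05 FPKM in WMW-H, 128 ± 2.90 in AOM/DSS and 91.5 ± 1.96 in Control libraries. For this list and the next, 45.5% of all tested genes were higher and 20.6% lower in AOM/DSS than in Control. In WMW-H against AOM/DSS the shares were 25.9% higher and 40.9% lower. Of 10 genes of differentiated colonocytes, 9 were lower and 0 higher in AOM/DSS than in Control, and 4 were higher and 6 lower in WMW-H than in AOM/DSS, with a median log2 change of -0.116. Their summed FPKM, which a few abundant genes carry, was 8509 to 9005 in WMW-H, 7417 to 7484 in AOM/DSS and 9967 to 10190 in Control libraries. Macrophage markers (9 of 9 found) summed to 588.8 to 624.5 FPKM in WMW-H, 734.7 to 754.3 in AOM/DSS and 340.0 to 368.7 in Control libraries. Fibroblast markers (8 of 8) summed to 404.7 to 437.9 FPKM in WMW-H, 354.8 to 376.1 in AOM/DSS and 220.9 to 230.5 in Control libraries. Germinal centre and pan-B cell markers (12 of 12) summed to 19.4 to 21.5 FPKM in WMW-H, 35.9 to 38.4 in AOM/DSS and 35.2 to 40.8 in Control libraries. The part of these cells in the results was not tested.

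Promoters of mitosis genes are known for a pair of elements, the CHR element TTTGAA (or TTCGAA), which the LIN54 subunit of the DREAM and MuvB complexes binds, and CCAAT boxes, which the factor NF-Y binds. RefSeq promoter windows of GRCm38.p6, from 250 bases before to 50 after the start, were matched for 37 of the 44 members, with 40 windows because 3 genes had 2. Both strands were searched, so that TTTGAA may read TTCAAA and CCAAT may read ATTGG, while TTCGAA reads the same on both strands and none of the motifs contains another. Either CHR form was in 75% of the members' windows and in 19.2% of all 32851 windows. At least 1 CCAAT was in 77.5% of the members' windows and 37.4% of all, at least 2 CCAAT in 52.5% and 11.7%, and a CHR form with a CCAAT in 67.5% and 7.52%. Members with a CHR form were 6 of the 7 matched members called higher in AOM/DSS against Control, 6 of the 9 called lower and 15 of the 21 not called. A match of letters is a description and not a site shown to be bound. The 150 bases before the start are printed for 5 members, with motif letters in capitals, because each holds a CCAAT within these bases, and all but Aurka, whose CHR form lies after the start, also a CHR form, while their RNA differed in direction: Aurka was higher and Kif11 and Smc2 were lower in AOM/DSS than in Control, and Top2a and Cdk1 were not called there. The windows are Aurka at chr2:172370571-172370720, minus strand; Kif11 at chr19:37376232-37376381, plus strand; Smc2 at chr4:52439071-52439220, plus strand; Top2a at chr11:99024190-99024339, minus strand; and Cdk1 at chr10:69352913-69353062, minus strand.
Aurka: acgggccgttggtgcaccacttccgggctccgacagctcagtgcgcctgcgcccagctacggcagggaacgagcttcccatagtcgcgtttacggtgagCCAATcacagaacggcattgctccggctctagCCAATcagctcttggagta
Kif11: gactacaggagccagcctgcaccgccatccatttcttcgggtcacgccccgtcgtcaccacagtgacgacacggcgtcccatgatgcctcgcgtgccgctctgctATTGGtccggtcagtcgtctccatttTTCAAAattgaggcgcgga
Smc2: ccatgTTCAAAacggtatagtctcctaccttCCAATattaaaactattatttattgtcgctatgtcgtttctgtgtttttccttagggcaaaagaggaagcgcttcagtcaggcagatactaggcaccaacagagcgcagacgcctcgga
Top2a: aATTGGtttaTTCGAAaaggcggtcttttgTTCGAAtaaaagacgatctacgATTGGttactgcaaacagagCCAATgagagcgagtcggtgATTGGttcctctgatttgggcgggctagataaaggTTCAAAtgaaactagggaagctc
Cdk1: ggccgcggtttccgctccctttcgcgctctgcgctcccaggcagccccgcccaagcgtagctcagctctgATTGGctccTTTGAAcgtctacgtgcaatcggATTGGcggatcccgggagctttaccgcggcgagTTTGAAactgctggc

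Mki67 encodes the Ki67 antigen, a protein that coats mitotic chromosomes and is the usual stain for dividing cells. Mki67 had 12.4, 12.9, 14.978, 13.9 and 13.4 FPKM in the WMW-H libraries. Mki67 had 17.6, 16.4, 16.8, 16.9 and 16.7 FPKM in the AOM/DSS libraries, against 19.6, 18.7, 20.1, 19.4 and 19.0 FPKM in the Control libraries. Each group lay apart from the other 2, with WMW-H lowest and Control highest. The log2 change was -0.19 ± 0.04 (adjusted p = 0.00102) in AOM/DSS against Control, -0.30 ± 0.04 (adjusted p = 8.3e-06) in WMW-H against AOM/DSS and -0.49 ± 0.04 (adjusted p = 3.89e-08) in WMW-H against Control, and these calls remained under the 4 other scalings tried. Top2a encodes topoisomerase II alpha, which untangles replicated DNA and is also used as a proliferation marker. Top2a had 20.1, 21.4, 20.003, 21.6 and 21.5 FPKM in the WMW-H libraries. Top2a had 19.0, 20.1, 19.5, 19.6 and 19.2 FPKM in the AOM/DSS libraries, against 19.6, 19.6, 19.1, 20.036 and 19.6 FPKM in the Control libraries. Its groups overlapped in all 3 comparisons. The log2 change of Top2a was -0.01 ± 0.03 (adjusted p = 0.857) in AOM/DSS against Control, 0.10 ± 0.03 (adjusted p = 0.0113) in WMW-H against AOM/DSS and 0.09 ± 0.03 (adjusted p = 0.0199) in WMW-H against Control. With size factors or quantile normalization, Top2a was called lower in AOM/DSS than in Control. The rise against AOM/DSS was not called after scaling to TPM (the same values rescaled to a common total; 0.05, adjusted p = 0.21), and the rise against Control was not called with size factors (0.04, adjusted p = 0.257) or without the fourth WMW-H library (0.08, adjusted p = 0.053).

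**Figure D3:**
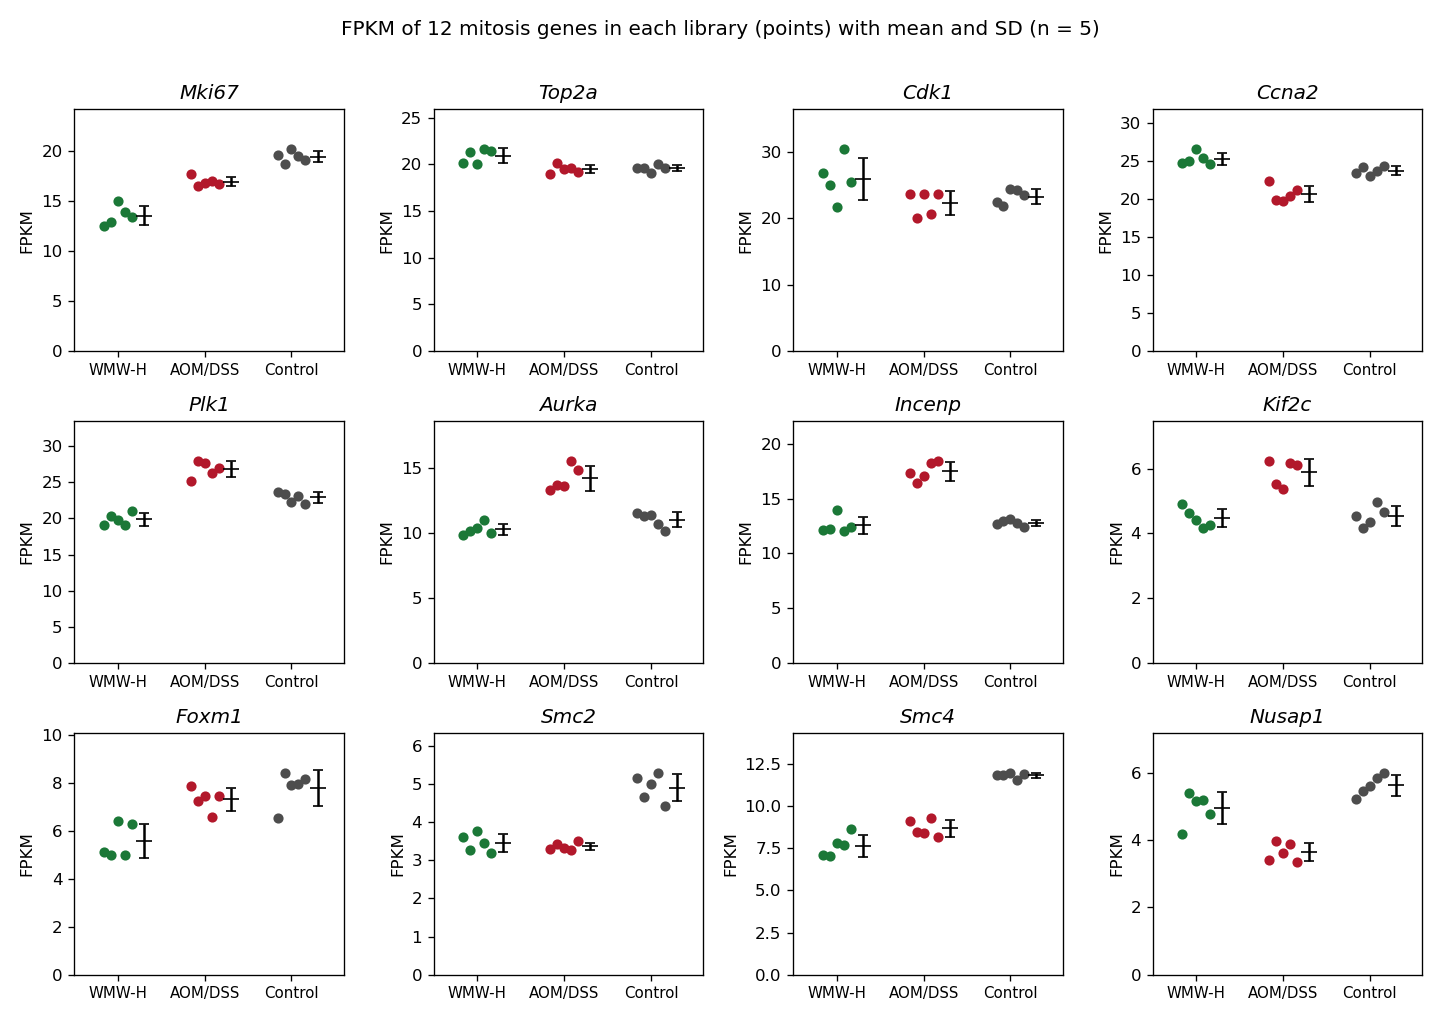
FPKM of 12 mitosis genes in each of the 15 libraries (points), with the group mean and SD (n = 5) beside them and axes from 0. Mki67 is lowest in WMW-H and highest in Control, Aurka, Incenp and Kif2c are highest in AOM/DSS, Nusap1 and Ccna2 are lowest in AOM/DSS, and Smc2 and Smc4 are highest in Control.

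Among the 5 genes of the cyclin-dependent kinase engine, 1 was lower in AOM/DSS than in Control (20.6% of all tested genes). In WMW-H, 2 were higher than in AOM/DSS (25.9% of all genes) and 1 was lower than in Control (24.1%). Cdk1 had 26.8, 24.952, 21.8, 30.4 and 25.4 FPKM in the WMW-H libraries. Cdk1 had 23.7, 20.1, 23.7, 20.6 and 23.6 FPKM in the AOM/DSS libraries, against 22.4, 21.9, 24.3, 24.2 and 23.5 FPKM in the Control libraries. The groups overlapped in each comparison. As deposited, Cdk1, the kinase that starts mitosis, was called only as higher in WMW-H than in AOM/DSS, with a log2 change of 0.20 ± 0.07 (adjusted p = 0.0193). That call was lost without AOM/DSS library 2 (0.16, adjusted p = 0.0573) or 4 (0.17, adjusted p = 0.0524) or WMW-H library 4 (0.14, adjusted p = 0.0603), and after scaling to TPM (0.15, adjusted p = 0.079). With size factors, quantile normalization or the GC trend removed, Cdk1 was called lower in AOM/DSS than in Control. It was called higher in WMW-H than in Control with library weights or without WMW-H library 3. Ccna2 encodes cyclin A2, which acts from S phase to early mitosis. Ccna2 had 24.7, 24.9, 26.5, 25.3 and 24.6 FPKM in the WMW-H libraries. Ccna2 had 22.3, 19.8, 19.7, 20.4 and 21.1 FPKM in the AOM/DSS libraries, against 23.4, 24.1, 23.1, 23.6 and 24.3 FPKM in the Control libraries. Every AOM/DSS library was below every library of the other groups, with a log2 change of -0.19 ± 0.04 (adjusted p = 0.000167) in AOM/DSS against Control and 0.28 ± 0.04 (adjusted p = 3.52e-06) in WMW-H against AOM/DSS. Ccnb1 encodes cyclin B1, the main mitotic partner of CDK1. Ccnb1 had 16.2, 16.2, 14.3, 17.3 and 16.2 FPKM in the WMW-H libraries. Ccnb1 had 14.5, 15.5, 15.3, 16.3 and 16.3 FPKM in the AOM/DSS libraries, against 15.4, 15.1, 14.4, 14.2 and 17.1 FPKM in the Control libraries. It was called in no comparison, with log2 changes of 0.03, 0.04 and 0.07 in AOM/DSS against Control, WMW-H against AOM/DSS and WMW-H against Control, each with an SE of 0.05. Ccnb2, a second B-type cyclin, averaged 23.2 ± 0.870 FPKM in WMW-H, 24.2 ± 0.796 in AOM/DSS and 25.6 ± 0.817 in Control libraries. Ccnb2 was lower in WMW-H than in Control, with a log2 change of -0.14 ± 0.03 (adjusted p = 0.00255). Cks2, a small subunit that binds CDK1, averaged 28.8 ± 1.73 FPKM in WMW-H, 27.9 ± 1.41 in AOM/DSS and 28 ± 2.86 in Control libraries and was not called.

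Foxm1 encodes the forkhead factor that activates many of the other members late in the cell cycle. Foxm1 had 5.12, 5.01, 6.42, 5.01 and 6.30 FPKM in the WMW-H libraries. Foxm1 had 7.86, 7.25, 7.46, 6.58 and 7.45 FPKM in the AOM/DSS libraries, against 6.53, 8.42, 7.91, 7.97 and 8.18 FPKM in the Control libraries. All 5 WMW-H libraries were below all libraries of the other 2 groups, which overlapped each other. The log2 change was -0.34 ± 0.08 (adjusted p = 0.00073) in WMW-H against AOM/DSS and -0.42 ± 0.08 (adjusted p = 0.000141) in WMW-H against Control, and -0.08 ± 0.08 (adjusted p = 0.374) in AOM/DSS against Control, which was not called. With size factors, quantile normalization or the GC trend removed, Foxm1 was called lower in AOM/DSS than in Control.

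Of the 4 mitotic kinases, Plk1 and Aurka were highest in AOM/DSS libraries. Plk1 had 19.1, 20.3, 19.8, 19.1 and 21.1 FPKM in the WMW-H libraries. Plk1 had 25.1, 27.9, 27.7, 26.3 and 26.9 FPKM in the AOM/DSS libraries, against 23.7, 23.4, 22.3, 23.1 and 21.9 FPKM in the Control libraries. For this polo-like kinase, which acts in centrosome maturation, spindle assembly and cytokinesis, no 2 groups overlapped. The log2 change of Plk1 was 0.22 ± 0.04 (adjusted p = 7.06e-05) in AOM/DSS against Control, -0.41 ± 0.04 (adjusted p = 4.36e-08) in WMW-H against AOM/DSS and -0.20 ± 0.04 (adjusted p = 0.00025) in WMW-H against Control. With the GC trend of the libraries removed, Plk1 was at -0.16 (adjusted p = 0.00203) in WMW-H against AOM/DSS and was not called in AOM/DSS against Control (0.05, adjusted p = 0.297). Aurka had 9.82, 10.1, 10.3, 10.964 and 9.98 FPKM in the WMW-H libraries. Aurka had 13.3, 13.7, 13.6, 15.5 and 14.8 FPKM in the AOM/DSS libraries, against 11.5, 11.3, 11.4, 10.6 and 10.2 FPKM in the Control libraries. AOM/DSS libraries were all above the rest for Aurka, the spindle pole kinase that TPX2 activates, with a log2 change of 0.34 ± 0.05 (adjusted p = 1.04e-05) against Control. Aurka had a log2 change of -0.43 ± 0.05 (adjusted p = 6.68e-07) in WMW-H against AOM/DSS, while WMW-H and Control overlapped (log2 change -0.09 ± 0.05, adjusted p = 0.114). Aurka was called lower in WMW-H than in Control with size factors, quantile normalization, TPM without the pancreas and gland lists, or the GC trend removed. Relative to the all-gene median shift of 0.117, the change in AOM/DSS against Control was 0.22 for Aurka and 0.10 for Plk1. Ttk, the checkpoint kinase also called MPS1, averaged 2.09 ± 0.129 FPKM in WMW-H, 2.03 ± 0.232 in AOM/DSS and 2.55 ± 0.349 in Control libraries. Ttk was lower in AOM/DSS (log2 change -0.23 ± 0.07, adjusted p = 0.0117) and in WMW-H (log2 change -0.19 ± 0.07, adjusted p = 0.03) than in Control. The call of Ttk in WMW-H against Control was lost without Control library 1 or 5 or WMW-H library 2 or 4, with adjusted p of 0.0557, 0.0927, 0.0686 and 0.0614. Nek2, a kinase that separates centrosomes, averaged 9.56 ± 1.03 FPKM in WMW-H, 8.82 ± 0.417 in AOM/DSS and 8.84 ± 0.297 in Control libraries and was not called.

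The chromosomal passenger complex corrects wrong attachments of chromosomes to the spindle, and of its 4 subunits 1 was called higher in AOM/DSS than in Control and 2 lower in WMW-H than in AOM/DSS. In these comparisons 45.5% of all tested genes were higher and 40.9% lower. All 4 log2 changes were above 0 in AOM/DSS against Control and below 0 in WMW-H against AOM/DSS. The all-gene medians, 0.117 and -0.075, had the same signs. Relative to the median in AOM/DSS against Control, Aurkb was at -0.055, Cdca8 at -0.047 and Birc5 at 0.021. With the GC trend of the libraries removed, Aurkb was at -0.107 and Cdca8 at -0.098 there. Cdca8 was then at 0.035 in WMW-H against AOM/DSS. Incenp had 12.1, 12.3, 13.9, 12.1 and 12.4 FPKM in the WMW-H libraries. Incenp had 17.4, 16.4, 17.0, 18.2 and 18.4 FPKM in the AOM/DSS libraries, against 12.7, 12.994, 13.1, 12.8 and 12.4 FPKM in the Control libraries. Incenp, the scaffold of the complex, had the highest log2 change of all members in AOM/DSS against Control, at 0.42 ± 0.04 (adjusted p = 1.7e-07), or 0.30 relative to the all-gene median. AOM/DSS libraries were all above the other 2 groups, WMW-H against AOM/DSS gave -0.45 ± 0.04 (adjusted p = 8.89e-08), and WMW-H overlapped Control (log2 change -0.03 ± 0.04, adjusted p = 0.603). Birc5 had 22.6, 19.8, 19.8, 21.5 and 25.6 FPKM in the WMW-H libraries. Birc5 had 23.9, 26.6, 21.7, 24.2 and 23.5 FPKM in the AOM/DSS libraries, against 20.1, 22.4, 22.5, 21.4 and 22.012 FPKM in the Control libraries. Birc5, which encodes survivin, overlapped between all groups and was not called, with log2 changes of 0.14 ± 0.06 (adjusted p = 0.0652) in AOM/DSS against Control and -0.13 ± 0.06 (adjusted p = 0.0785) in WMW-H against AOM/DSS. Aurkb, the kinase of the complex, averaged 10.7 ± 0.639 FPKM in WMW-H, 12.8 ± 0.782 in AOM/DSS and 12.2 ± 0.999 in Control libraries. Aurkb was lower in WMW-H than in AOM/DSS (log2 change -0.23 ± 0.06, adjusted p = 0.00175) and than in Control (log2 change -0.17 ± 0.06, adjusted p = 0.017). Without Control library 1, the change of Aurkb against Control had an adjusted p of 0.0524. Cdca8, which encodes borealin, averaged 14.7 ± 0.767 FPKM in WMW-H, 16.2 ± 1.68 in AOM/DSS and 15.3 ± 0.931 in Control libraries and was not called.

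Of the 4 spindle checkpoint genes, 2 were higher and 0 lower in AOM/DSS than in Control (45.5% and 20.6% of all tested genes). In WMW-H, 0 were higher and 2 lower than in AOM/DSS (25.9% and 40.9% of all genes). Against Control, 1 was higher and 1 lower in WMW-H (35.4% and 24.1% of all genes). Bub3 had 26.1, 29.6, 26.9, 29.4 and 29.1 FPKM in the WMW-H libraries. Bub3 had 34.6, 34.4, 35.4, 31.1 and 36.2 FPKM in the AOM/DSS libraries, against 31.8, 32.6, 32.5, 32.7 and 32.5 FPKM in the Control libraries. Bub3, which brings the BUB proteins to kinetochores, was lower in every WMW-H library than in any library of the other 2 groups, which overlapped. The log2 change was -0.27 ± 0.04 (adjusted p = 2.11e-05) in WMW-H against AOM/DSS, -0.20 ± 0.04 (adjusted p = 0.000686) in WMW-H against Control and 0.08 ± 0.04 (adjusted p = 0.113) in AOM/DSS against Control. Mad2l1 had 9.85, 9.55, 9.66, 9.82 and 10.3 FPKM in the WMW-H libraries. Mad2l1 had 9.98, 9.11, 9.58, 9.37 and 9.73 FPKM in the AOM/DSS libraries, against 9.24, 8.07, 8.24, 8.79 and 7.86 FPKM in the Control libraries. For Mad2l1, whose product MAD2 inhibits CDC20, WMW-H libraries were all above Control libraries (log2 change 0.20 ± 0.04, adjusted p = 0.000981). AOM/DSS libraries overlapped both groups and were called higher than Control (log2 change 0.16 ± 0.04, adjusted p = 0.00413), or 0.04 relative to the all-gene median. That change of Mad2l1 was not called with size factors (0.05, adjusted p = 0.312) and turned to -0.01 (adjusted p = 0.809) with quantile normalization. Bub1b, which encodes the checkpoint protein BUBR1, averaged 9.02 ± 0.486 FPKM in WMW-H, 10.9 ± 0.433 in AOM/DSS and 9.67 ± 0.684 in Control libraries. Bub1b was higher in AOM/DSS than in Control (log2 change 0.16 ± 0.05, adjusted p = 0.00987), a call that was lost with size factors (0.05, adjusted p = 0.432). In WMW-H it was lower than in AOM/DSS (log2 change -0.25 ± 0.05, adjusted p = 0.000307). Bub1, the kinase that recruits others to the kinetochore, averaged 2.50 ± 0.326 FPKM in WMW-H, 2.13 ± 0.248 in AOM/DSS and 2.24 ± 0.269 in Control libraries and was not called.

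The anaphase promoting complex tags securin and cyclin B for destruction. Cdc20, its mitotic activator, averaged 21.0 ± 1.76 FPKM in WMW-H, 27.7 ± 0.700 in AOM/DSS and 25.7 ± 0.779 in Control libraries, with all WMW-H libraries below the others. The log2 change was -0.39 ± 0.05 (adjusted p = 1.28e-06) in WMW-H against AOM/DSS and -0.28 ± 0.05 (adjusted p = 5.49e-05) in WMW-H against Control. With the GC trend of the libraries removed, the change of Cdc20 against AOM/DSS was -0.15 (adjusted p = 0.0081). Ube2c, the ubiquitin-conjugating enzyme that works with the complex, had the highest level of all members, at 59.7 ± 3.95 FPKM in WMW-H, 55.8 ± 1.55 in AOM/DSS and 53.7 ± 2.46 in Control libraries. It was higher in WMW-H than in Control (log2 change 0.15 ± 0.04, adjusted p = 0.00502), and with size factors that call was lost (0.10, adjusted p = 0.065). Every WMW-H library was above every AOM/DSS library for Ube2c, but the change was not called (log2 change 0.09 ± 0.04, adjusted p = 0.0522). It was called higher there under 9 alternatives, among them removal of the GC trend (0.34, adjusted p = 7.04e-06). Pttg1, which encodes securin, averaged 31.1 ± 2.19 FPKM in WMW-H, 29.9 ± 1.15 in AOM/DSS and 34.6 ± 1.48 in Control libraries. Pttg1 was lower than in Control both in AOM/DSS (log2 change -0.20 ± 0.04, adjusted p = 0.000691) and in WMW-H (log2 change -0.15 ± 0.04, adjusted p = 0.00729).

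The 5 centromere and kinetochore genes were mostly low. Nuf2 had 4.29, 4.59, 4.92, 4.58 and 3.32 FPKM in the WMW-H libraries. Nuf2 had 3.27, 3.15, 2.62, 2.62 and 3.38 FPKM in the AOM/DSS libraries, against 4.60, 3.60, 3.45, 3.63 and 3.08 FPKM in the Control libraries. Nuf2, a subunit of the NDC80 complex that holds microtubules, had the highest log2 change of all members in WMW-H against AOM/DSS, at 0.41 ± 0.10 (adjusted p = 0.00111), although the fifth WMW-H library lay within the AOM/DSS range. Its partner Ndc80 averaged 2.49 ± 0.228 FPKM in WMW-H, 2.10 ± 0.267 in AOM/DSS and 2.36 ± 0.304 in Control libraries and was not called. Cenpe, a kinesin of the kinetochore, averaged 1.74 ± 0.243 FPKM in WMW-H, 2.11 ± 0.130 in AOM/DSS and 2.62 ± 0.193 in Control libraries. Cenpe was lower in AOM/DSS (log2 change -0.22 ± 0.07, adjusted p = 0.00798) and in WMW-H (log2 change -0.41 ± 0.07, adjusted p = 5.71e-05) than in Control. It was also lower in WMW-H than in AOM/DSS (log2 change -0.19 ± 0.07, adjusted p = 0.0201), a call that was lost without WMW-H library 1 (adjusted p = 0.0504) or 2 (adjusted p = 0.0602) and with size factors (adjusted p = 0.0767). Cenpf, a large protein of the outer kinetochore, averaged 1.64 ± 0.287 FPKM in WMW-H, 1.94 ± 0.250 in AOM/DSS and 2.10 ± 0.233 in Control libraries. Cenpf was lower in WMW-H than in Control (log2 change -0.23 ± 0.08, adjusted p = 0.02), and the call was lost without Control library 1 (adjusted p = 0.0548) or 4 (adjusted p = 0.0504). Cenpa, the histone H3 variant that marks centromeres, averaged 18.2 ± 2.88 FPKM in WMW-H, 18.7 ± 0.700 in AOM/DSS and 16.9 ± 1.86 in Control libraries and was not called.

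Condensin I genes were called in 1 direction: 3 of the 5 genes were lower in AOM/DSS than in Control, 3 were lower in WMW-H than in AOM/DSS, and all 5 were lower in WMW-H than in Control, where 20.6%, 40.9% and 24.1% of all tested genes were lower in these comparisons. Smc2 had 3.61, 3.26, 3.76, 3.46 and 3.18 FPKM in the WMW-H libraries. Smc2 had 3.30, 3.42, 3.32, 3.28 and 3.49 FPKM in the AOM/DSS libraries, against 5.15, 4.66, 5.01, 5.29 and 4.42 FPKM in the Control libraries. Smc4 had 7.10, 7.04, 7.83, 7.72 and 8.63 FPKM in the WMW-H libraries. Smc4 had 9.10, 8.44, 8.39, 9.33 and 8.16 FPKM in the AOM/DSS libraries, against 11.9, 11.9, 11.974, 11.6 and 11.9 FPKM in the Control libraries. Smc2 and Smc4 form the ATPase core that condensin I and condensin II share, and every Control library was above every library of the other groups for both. The log2 change in AOM/DSS against Control was -0.43 ± 0.05 (adjusted p = 2.08e-06) for Smc2 and -0.41 ± 0.05 (adjusted p = 2.21e-06) for Smc4, or -0.55 and -0.53 relative to the all-gene median. Against Control, the change in WMW-H was -0.41 ± 0.05 (adjusted p = 6.27e-06) for Smc2 and -0.57 ± 0.05 (adjusted p = 5.68e-08) for Smc4, the lowest of all members. WMW-H and AOM/DSS overlapped for both genes, with 0.03 ± 0.05 (adjusted p = 0.663) for Smc2 and -0.16 ± 0.05 (adjusted p = 0.0101) for Smc4, where the call of Smc4 was lost with size factors (-0.10, adjusted p = 0.0982).

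Of the other condensin I subunits, Ncapg averaged 2.88 ± 0.438 FPKM in WMW-H, 2.56 ± 0.225 in AOM/DSS and 3.47 ± 0.258 in Control libraries. Ncapd2 averaged 16.1 ± 3.42 FPKM in WMW-H, 20.6 ± 1.09 in AOM/DSS and 20.7 ± 1.86 in Control libraries. Ncaph averaged 7.78 ± 0.835 FPKM in WMW-H, 9.29 ± 0.674 in AOM/DSS and 8.91 ± 0.590 in Control libraries. Ncapg was lower in AOM/DSS (log2 change -0.33 ± 0.07, adjusted p = 0.00103) and in WMW-H (log2 change -0.21 ± 0.07, adjusted p = 0.0235) than in Control. Ncapd2 was lower in WMW-H than in AOM/DSS (log2 change -0.36 ± 0.10, adjusted p = 0.00556) and than in Control (log2 change -0.36 ± 0.10, adjusted p = 0.00607). Neither call of Ncapd2 was made by the exact rank-sum test (adjusted p = 0.133 and 0.0929), and that against AOM/DSS was lost with the GC trend removed (-0.16, adjusted p = 0.215). Ncaph was also lower in WMW-H than in AOM/DSS (log2 change -0.23 ± 0.07, adjusted p = 0.00609) and than in Control (log2 change -0.18 ± 0.07, adjusted p = 0.0313). Against Control, the call of Ncapg was lost without Control library 2 (adjusted p = 0.0647) or WMW-H library 3 (adjusted p = 0.0597) or 5 (adjusted p = 0.0696). The call of Ncaph was lost without Control library 1 (adjusted p = 0.0655) or 5 (adjusted p = 0.0838) or WMW-H library 1 (adjusted p = 0.052) or 4 (adjusted p = 0.0934). Of 3 condensin II genes outside the members, Ncapd3 and Ncapg2 were called in neither AOM/DSS against Control nor WMW-H against AOM/DSS. Ncaph2 averaged 32.4 ± 1.75 FPKM in WMW-H, 42.9 ± 0.970 in AOM/DSS and 39.4 ± 1.98 in Control libraries. It was higher in AOM/DSS than in Control (log2 change 0.12 ± 0.04, adjusted p = 0.0124) and lower in WMW-H than in AOM/DSS (log2 change -0.40 ± 0.04, adjusted p = 1.51e-07).

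Spindle motors and microtubule proteins were called in both directions in AOM/DSS against Control, 2 higher and 3 lower of 5. Of all tested genes, 45.5% were higher and 20.6% lower in that comparison. Kif2c had 4.90, 4.62, 4.43, 4.17 and 4.28 FPKM in the WMW-H libraries. Kif2c had 6.24, 5.52, 5.37, 6.19 and 6.11 FPKM in the AOM/DSS libraries, against 4.54, 4.16, 4.37, 4.98 and 4.68 FPKM in the Control libraries. Kif2c, a kinesin that takes microtubule ends apart, was higher in AOM/DSS than in the other 2 groups without overlap. Its log2 change was 0.31 ± 0.06 (adjusted p = 0.000137) in AOM/DSS against Control, or 0.20 relative to the all-gene median, and -0.33 ± 0.06 (adjusted p = 8.08e-05) in WMW-H against AOM/DSS. Nusap1 had 4.19, 5.41, 5.16, 5.19 and 4.77 FPKM in the WMW-H libraries. Nusap1 had 3.41, 3.97, 3.62, 3.90 and 3.35 FPKM in the AOM/DSS libraries, against 5.21, 5.46, 5.62, 5.83 and 5.996 FPKM in the Control libraries. Nusap1, which stabilises and bundles spindle microtubules, was lower in AOM/DSS than in the other 2 groups without overlap. Its change against Control was the lowest of all members, at -0.51 ± 0.06 (adjusted p = 1.79e-06), or -0.63 relative to the all-gene median. In WMW-H against AOM/DSS the log2 change of Nusap1 was 0.35 ± 0.06 (adjusted p = 0.000103). Against Control, WMW-H had a Nusap1 change of -0.16 ± 0.06 (adjusted p = 0.0389), a call that was lost when any of 5 libraries was left out, with adjusted p from 0.0614 to 0.117: Control 3, 4 or 5 or WMW-H 1 or 5.

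Kif11, the motor that pushes the spindle poles apart, averaged 5.93 ± 0.625 FPKM in WMW-H, 5.03 ± 0.188 in AOM/DSS and 6.88 ± 0.522 in Control libraries. It was lower in AOM/DSS than in Control (log2 change -0.38 ± 0.06, adjusted p = 4.42e-05), higher in WMW-H than in AOM/DSS (log2 change 0.20 ± 0.06, adjusted p = 0.0112) and lower in WMW-H than in Control (log2 change -0.19 ± 0.06, adjusted p = 0.0168). Hmmr, a microtubule-binding protein of the spindle that also binds hyaluronan, averaged 3.49 ± 0.140 FPKM in WMW-H, 2.85 ± 0.221 in AOM/DSS and 3.77 ± 0.318 in Control libraries. Its log2 change was -0.31 ± 0.06 (adjusted p = 0.000178) in AOM/DSS against Control and 0.22 ± 0.06 (adjusted p = 0.00287) in WMW-H against AOM/DSS. Tpx2, the spindle assembly factor that activates Aurora A, averaged 9.21 ± 0.599 FPKM in WMW-H, 10.4 ± 0.492 in AOM/DSS and 8.94 ± 0.306 in Control libraries. Tpx2 was higher in AOM/DSS than in Control (log2 change 0.20 ± 0.05, adjusted p = 0.00105) and lower in WMW-H than in AOM/DSS (log2 change -0.17 ± 0.05, adjusted p = 0.00485). Both calls of Tpx2 were lost with size factors (adjusted p = 0.103 and 0.0707).

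Of the 6 genes of the spindle midzone and cytokinesis, 3 were higher and 0 lower in AOM/DSS than in Control, 0 were higher and 2 lower in WMW-H than in AOM/DSS, and 2 were higher and 0 lower in WMW-H than in Control. Of all tested genes, 45.5% were higher in AOM/DSS than in Control, 40.9% lower in WMW-H than in AOM/DSS and 35.4% higher in WMW-H than in Control. Ect2 had 7.92, 8.03, 7.94, 7.96 and 8.07 FPKM in the WMW-H libraries. Ect2 had 8.25, 7.29, 7.20, 8.01 and 7.71 FPKM in the AOM/DSS libraries, against 5.73, 6.28, 6.10, 7.51 and 6.32 FPKM in the Control libraries. Prc1 had 12.5, 12.4, 12.5, 13.2 and 12.8 FPKM in the WMW-H libraries. Prc1 had 10.9, 12.3, 11.7, 12.3 and 11.8 FPKM in the AOM/DSS libraries, against 11.2, 9.46, 10.8, 10.3 and 10.2 FPKM in the Control libraries. For Ect2, the exchange factor that switches on RhoA at the cleavage furrow, and Prc1, which bundles microtubules of the midzone, all WMW-H libraries were above all Control libraries. The log2 change was 0.29 ± 0.06 (adjusted p = 0.000342) for Ect2 and 0.27 ± 0.04 (adjusted p = 8.28e-05) for Prc1. Both were also called higher in AOM/DSS than in Control, with overlapping groups, by 0.24 ± 0.06 (adjusted p = 0.00143) for Ect2 and 0.17 ± 0.04 (adjusted p = 0.00392) for Prc1. These calls were lost with size factors (0.13, adjusted p = 0.0543 for Ect2 and 0.06, adjusted p = 0.307 for Prc1). Kif20a, a kinesin of the midzone, averaged 8.96 ± 0.685 FPKM in WMW-H, 10.4 ± 0.452 in AOM/DSS and 8.82 ± 0.441 in Control libraries. Kif20a was higher in AOM/DSS than in Control (log2 change 0.22 ± 0.05, adjusted p = 0.00125) and lower in WMW-H than in AOM/DSS (log2 change -0.20 ± 0.05, adjusted p = 0.00257). The rise was not called with size factors (0.11, adjusted p = 0.0744) nor the fall with quantile normalization (-0.10, adjusted p = 0.0971). Racgap1, the centralspindlin subunit that binds ECT2, averaged 15.9 ± 0.804 FPKM in WMW-H, 18.1 ± 2.197 in AOM/DSS and 17.5 ± 1.24 in Control libraries. Racgap1 was lower in WMW-H than in AOM/DSS (log2 change -0.17 ± 0.07, adjusted p = 0.0418). That call was lost when any of 7 libraries was left out, with adjusted p from 0.0644 to 0.131: AOM/DSS 3, 4 or 5 or WMW-H 1, 2, 4 or 5. Its partner Kif23 averaged 8.11 ± 0.763 FPKM in WMW-H, 7.91 ± 0.695 in AOM/DSS and 7.50 ± 0.648 in Control libraries. Anln, which encodes the furrow scaffold anillin, averaged 5.90 ± 0.352 FPKM in WMW-H, 6.55 ± 0.733 in AOM/DSS and 5.82 ± 0.226 in Control libraries. Neither of them was called.

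Some of these calls changed with the scaling of the libraries. The median log2 change of all genes in AOM/DSS against Control was 0.117 as deposited, 0.012 with median-of-ratios size factors and -0.016 with quantile normalization. Higher genes made up 68.9% of all calls in that comparison as deposited, 74.4% in TPM, 51.4% with size factors and 47.5% with quantile normalization. For the members this gave 10 higher and 11 lower as deposited, 15 and 11 in TPM, 4 and 17 with size factors and 4 and 20 with quantile normalization. The 4 members that were called higher under every one of these scalings were Plk1, Aurka, Incenp and Kif2c, and all 11 that were lower stayed lower, namely Mki67, Ccna2, Ttk, Pttg1, Cenpe, Smc2, Smc4, Ncapg, Kif11, Nusap1 and Hmmr. Size factors and quantile normalization moved the all-gene median down, which favours lower calls, while TPM moved it up to 0.172. In WMW-H against AOM/DSS the members' counts were 7 higher and 17 lower as deposited, 13 and 13 with size factors and 17 and 11 with quantile normalization, while higher genes made up 38.8%, 47.5% and 49.6% of all calls. In WMW-H against Control they were 5 and 18, 3 and 21, and 4 and 22, with higher genes at 59.5%, 50.6% and 48.0% of all calls, and the 18 members called lower stayed lower under each scaling. The all-gene median there was 0.050 as deposited, 0.051 in TPM, 0.006 with size factors and -0.012 with quantile normalization. In TPM without the pancreas and gland lists it was 0.010. These scalings left the median nearly unchanged or moved it down, so they could hardly end a lower call.

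The GC content of the transcripts moved with the changes of the members in AOM/DSS against Control and in WMW-H against AOM/DSS. The longest coding transcripts of the 44 members had a GC content of 39.7% to 56.0%, with a median of 46.2%, where the tested genes had a median of 50.5%, and the transcript that is mainly expressed may differ from the longest. Spearman's rho between GC content and log2 change was 0.51 over the 44 members and 0.27 over 12899 genes in AOM/DSS against Control, -0.59 and -0.55 in WMW-H against AOM/DSS, and -0.07 and -0.31 in WMW-H against Control. These are descriptions across genes of the same libraries, which are not independent replicates. All genes were also divided into 4 equal groups by GC content. In the group lowest in GC content, the 20 members had a median log2 change of -0.094 in AOM/DSS against Control and all genes -0.039, and in WMW-H against AOM/DSS 0.046 and 0.182. In the second highest group, the 6 members had 0.066 and all genes 0.166 in AOM/DSS against Control, and -0.352 and -0.173 in WMW-H against AOM/DSS. Incenp, Plk1 and Aurka had 54.5%, 56.0% and 51.4% GC, and Smc2, Smc4 and Nusap1 39.7%, 40.2% and 41.8%.

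**Figure D4:**
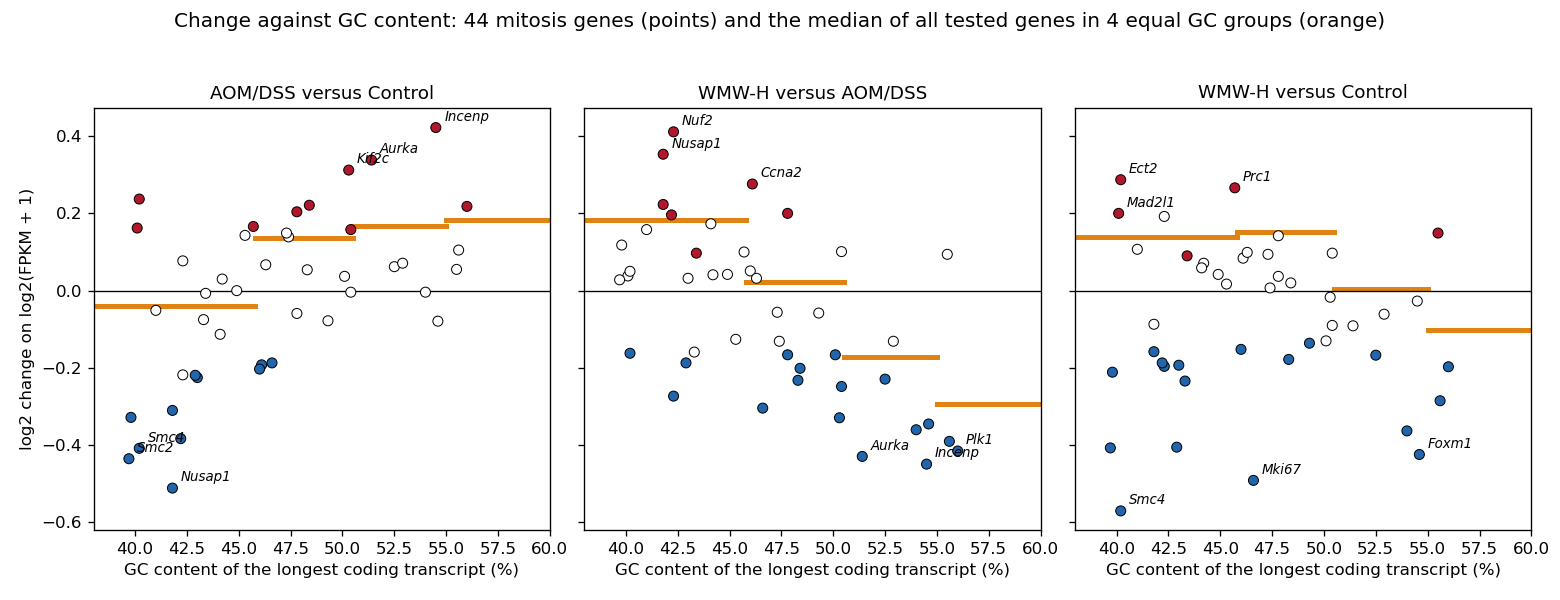
Log2 change on log2(FPKM + 1) of the 44 mitosis genes (points, coloured by call as red higher, blue lower and white not called) against the GC content of their longest coding transcript, with the median of all tested genes in each of 4 equal GC groups as an orange line, cut at 38 and 60%. Points and lines rise with GC content in AOM/DSS versus Control and fall with it in WMW-H versus AOM/DSS.

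With the GC trend of each library removed by a lowess curve, an alternative chosen after the data were seen, 7 members were higher and 16 lower in AOM/DSS against Control, 4 higher and 21 lower in WMW-H against AOM/DSS, and 3 higher and 28 lower in WMW-H against Control. Of 12899 genes, 30.2% were then higher and 29.0% lower in AOM/DSS against Control, 27.7% and 28.5% in WMW-H against AOM/DSS, and 26.4% and 26.3% in WMW-H against Control. In AOM/DSS against Control the log2 change of Incenp was then 0.26 (adjusted p = 0.000116), that of Aurka 0.17 (adjusted p = 0.00589) and that of Kif2c 0.16 (adjusted p = 0.0281), while Plk1 was not called. On the lower side, Nusap1 was at -0.44 (adjusted p = 2e-05), Smc2 at -0.28 (adjusted p = 0.000314), Smc4 at -0.28 (adjusted p = 0.000274) and Mki67 at -0.27 (adjusted p = 6.8e-05). In WMW-H against AOM/DSS the rises of Nuf2 (0.22, adjusted p = 0.0611), Cdk1 (0.16, adjusted p = 0.0646), Kif11 (adjusted p = 0.992) and Hmmr (adjusted p = 0.697) were not called, nor were the falls of Foxm1 (-0.13, adjusted p = 0.169), Aurkb (adjusted p = 0.255), Ncapd2 (-0.16, adjusted p = 0.215) and Racgap1 (-0.11, adjusted p = 0.204). Top2a turned to -0.09 (adjusted p = 0.0152). Ube2c (0.34, adjusted p = 7.04e-06) and Nek2 (0.17, adjusted p = 0.0152), not called as deposited, were called higher. Ccna2 stayed higher (0.16, adjusted p = 0.0013), as did Nusap1 (0.16, adjusted p = 0.0492), and Mki67 (-0.40, adjusted p = 1.11e-06), Aurka (-0.32, adjusted p = 3.38e-05), Incenp (-0.23, adjusted p = 0.000346) and Bub3 (-0.47, adjusted p = 3.92e-08) stayed lower. Of the members called as deposited, 10 of 21 in AOM/DSS against Control, 13 of 24 in WMW-H against AOM/DSS and 3 of 23 in WMW-H against Control had changes that shrank by over 1.5 times or turned, and 2, 3 and 9 grew by over 1.5 times. The shares of all called genes that moved so are not given, so these counts do not set the members apart from other genes. In WMW-H against Control the 18 members called lower stayed lower, with Mki67 at -0.67 (adjusted p = 1.89e-09) and Smc4 at -0.63 (adjusted p = 3.48e-08), and of the 5 called higher Mad2l1, Ube2c and Ect2 stayed so. The all-gene median in that comparison was 0.004 in this fit and 0.050 as deposited, a shift that favours lower calls. Removing the trend also removes any change that follows GC content for other reasons, and the part of GC content in these results was not tested beyond this fit.

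Other genes of the same machinery moved in both directions too. Of 69 tested mitosis genes outside the 44, 16 were higher and 11 lower in AOM/DSS than in Control, 13 higher and 22 lower in WMW-H than in AOM/DSS, and 10 higher and 18 lower in WMW-H than in Control, with median log2 changes of 0.029, 0.012 and 0.014. For this and the lists that follow, 45.5% of all tested genes were higher and 20.6% lower in AOM/DSS against Control. The shares were 25.9% and 40.9% in WMW-H against AOM/DSS, and 35.4% and 24.1% in WMW-H against Control. Cks1b, a CDK-binding subunit like Cks2, averaged 15.9 ± 0.547 FPKM in WMW-H, 19.6 ± 1.62 in AOM/DSS and 13.03 ± 1.38 in Control libraries. Its log2 change was 0.56 ± 0.07 (adjusted p = 8.33e-07) in AOM/DSS against Control. Hmgb2, a chromatin protein abundant in dividing cells, averaged 39.7 ± 2.51 FPKM in WMW-H, 25.6 ± 1.55 in AOM/DSS and 33.6 ± 2.43 in Control libraries. Hmgb2 had a log2 change of -0.38 ± 0.05 (adjusted p = 7.82e-06) in AOM/DSS against Control and 0.61 ± 0.05 (adjusted p = 2.69e-08) in WMW-H against AOM/DSS. Cdc25b, a phosphatase that activates CDK1, averaged 8.49 ± 0.395 FPKM in WMW-H, 12.2 ± 0.330 in AOM/DSS and 10.3 ± 0.668 in Control libraries. Cdc25b had a log2 change of -0.47 ± 0.05 (adjusted p = 1.03e-07) in WMW-H against AOM/DSS.

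Of 15 genes of the anaphase promoting complex, 8 were higher and 0 lower in AOM/DSS than in Control. In WMW-H, 4 were higher and 7 lower than in AOM/DSS. The 15 include Fzr1, an activator like Cdc20 and not a core subunit, which was among the 8 and among the 7. Anapc16 averaged 26.6 ± 1.72 FPKM in WMW-H, 31.8 ± 1.49 in AOM/DSS and 22.5 ± 1.76 in Control libraries, and had a log2 change of 0.48 ± 0.05 (adjusted p = 5.15e-07) in AOM/DSS against Control. Anapc2 averaged 25.1 ± 2.90 FPKM in WMW-H, 41.2 ± 2.06 in AOM/DSS and 31.1 ± 2.54 in Control libraries, and had a log2 change of -0.70 ± 0.07 (adjusted p = 1.92e-07) in WMW-H against AOM/DSS. Their median log2 change in AOM/DSS against Control was 0.123, where that of all genes was 0.117. Cohesin is a ring that holds sister chromatids together until anaphase. Of 10 genes of cohesin and the factors that load or regulate it, 1 was higher and 4 lower in AOM/DSS than in Control. The higher gene was Mau2, of the loader, and the lower genes were Smc1a, Smc3, Stag1 and Stag2, of cohesin itself. Smc3, a core subunit, averaged 8.80 ± 0.429 FPKM in WMW-H, 9.23 ± 0.338 in AOM/DSS and 10.8 ± 0.385 in Control libraries. Smc3 had a log2 change of -0.21 ± 0.04 (adjusted p = 0.000353) in AOM/DSS against Control. In WMW-H against AOM/DSS, 3 of the 10 were higher (Rad21, Stag1 and Smc1a) and 2 lower (Nipbl and Mau2). The subunit gene Rad21 averaged 56.1 ± 1.62 FPKM in WMW-H, 48.3 ± 1.52 in AOM/DSS and 47.4 ± 0.895 in Control libraries, and had a log2 change of 0.21 ± 0.03 (adjusted p = 3.8e-06) in WMW-H against AOM/DSS. Nipbl had a log2 change of -0.40 ± 0.05 (adjusted p = 9.6e-07) there, and Mau2 of -0.19 ± 0.05 (adjusted p = 0.0022).

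Regulators of these genes were also called in both directions. Of 19 genes of the DREAM complex and the E2F family, which control transcription of cell cycle genes, 9 were higher and 2 lower in AOM/DSS than in Control, a share of higher genes near the 45.5% of all tested genes. E2f2 averaged 5.99 ± 0.399 FPKM in WMW-H, 7.83 ± 0.735 in AOM/DSS and 5.76 ± 0.173 in Control libraries. E2f8, a repressor of the family, averaged 6.76 ± 0.224 FPKM in WMW-H, 5.93 ± 0.495 in AOM/DSS and 7.79 ± 0.4999 in Control libraries. In AOM/DSS against Control, E2f2 had a log2 change of 0.38 ± 0.06 (adjusted p = 2.7e-05) and E2f8 of -0.34 ± 0.06 (adjusted p = 3.18e-05). Of 10 genes for cyclins and kinases of the earlier cell cycle, 3 were higher and 2 lower in AOM/DSS than in Control. Ccnd1, which encodes cyclin D1, averaged 34.9 ± 0.804 FPKM in WMW-H, 33.7 ± 1.82 in AOM/DSS and 23.3 ± 0.456 in Control libraries. Its kinase Cdk4 averaged 69.1 ± 2.59 FPKM in WMW-H, 88.3 ± 2.88 in AOM/DSS and 59.4 ± 3.66 in Control libraries. Ccne2, an E-type cyclin of S phase entry, averaged 1.47 ± 0.216 FPKM in WMW-H, 1.13 ± 0.230 in AOM/DSS and 2.28 ± 0.123 in Control libraries. In AOM/DSS against Control, Ccnd1 had a log2 change of 0.51 ± 0.04 (adjusted p = 7.6e-10), Cdk4 of 0.57 ± 0.04 (adjusted p = 1.24e-09) and Ccne2 of -0.63 ± 0.08 (adjusted p = 2.15e-06). Of 9 genes that restrain the cycle, 4 were higher and 2 lower in AOM/DSS than in Control. Cdkn1c, the CDK inhibitor p57, averaged 12.5 ± 1.12 FPKM in WMW-H, 14.2 ± 0.867 in AOM/DSS and 4.08 ± 0.613 in Control libraries. It had a log2 change of 1.58 ± 0.08 (adjusted p = 8.92e-12) in AOM/DSS against Control. Cdkn1a, the inhibitor p21, averaged 107 ± 2.12 FPKM in WMW-H, 139.8 ± 1.89 in AOM/DSS and 173 ± 3.57 in Control libraries. Cdkn1a had a log2 change of -0.31 ± 0.02 (adjusted p = 9.65e-10) in AOM/DSS against Control and of -0.39 ± 0.02 (adjusted p = 7.36e-11) in WMW-H against AOM/DSS.

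Of 38 DNA replication genes, which act in S phase, 13 were higher and 8 lower in AOM/DSS than in Control, and 10 were higher and 11 lower in WMW-H than in AOM/DSS. Mcm2, a subunit of the replicative helicase, averaged 15.1 ± 0.302 FPKM in WMW-H, 18.7 ± 0.518 in AOM/DSS and 15.1 ± 0.785 in Control libraries. Mcm2 had a log2 change of 0.29 ± 0.04 (adjusted p = 2.18e-06) in AOM/DSS against Control and -0.29 ± 0.04 (adjusted p = 2.09e-06) in WMW-H against AOM/DSS. Pcna, the sliding clamp of replication, averaged 67.6 ± 2.37 FPKM in WMW-H, 46.4 ± 1.80 in AOM/DSS and 51.5 ± 1.75 in Control libraries. Pcna had a log2 change of -0.15 ± 0.03 (adjusted p = 0.000871) in AOM/DSS against Control and 0.53 ± 0.03 (adjusted p = 3.91e-10) in WMW-H against AOM/DSS.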

How the data were processed

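RNA of 15 colon libraries was sequenced, 5 each of WMW-H, AOM/DSS and Control mice, grouped by the treatment label. The authors deposited 1 table of FPKM values for 22063 genes. How it was made is recorded only as tool names in the submitters' processing notes: StringTie 1.3.1, RSEM, HISAT2, Bowtie2 2.2.8 and fastp 0.18.0. The genome build is not given in the sources used here. FPKM are not counts, so no count model was used. The test was limma (version 3.58.1, under R 4.3.3) with a mean-variance trend, on log2(FPKM + 1) of all 15 libraries with a mean per group. It was two-sided, with Benjamini-Hochberg adjustment over 12917 genes, those reaching 1 FPKM in 5 or more libraries. This scale understates the change of low genes. Depth was read from the steps of low FPKM values, of which 90.3% of 4734 were whole fragments to a tolerance of 0.1. Chance gives 20% at that tolerance. Intervals drawn from depth would cover counting error only, so none are printed. The SE and SD that are printed come from the spread between libraries. Within groups, the median variance of single-transcript genes was 2.22 (WMW-H), 1.65 (AOM/DSS) and 1.87 (Control) times that of counting.

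The members and all lists were chosen with earlier results of these data known. Values in every library are given for the 3 highest and 3 lowest log2 changes per comparison and for Mki67, Top2a, Cdk1, Ccnb1, Plk1, Foxm1, Birc5 and Bub3, and other members are given by their means. From other lists, up to 4 genes with the smallest p were eligible to be named, and not all are reported. The fit and the depth scan were checked on simulated data. Replicate numbers were not used to pair libraries. Alternatives were other scalings (TPM, size factors, quantile normalization, TPM without the pancreas and gland lists), pseudocounts of 0.1 and 0.5, other filters, 2 groups only, no trend, library weights, a minimum log2 change of 0.32, an exact rank-sum test, a replicate block, each library left out and removal of a GC trend. Promoter sequences came from RefSeq (GRCm38.p6), and transcript lengths and GC content from GENCODE M21, in which 21973 of the identifiers were found. Figures were drawn with matplotlib 3.10.9.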

Additional observations from a re-analysis of the deposited data

Results flagged for a closer look

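In 11 of 135 sets of 5 values (44 members and their sum in 3 groups), 1 library stood far from the other 4, where chance gives about 1 in 20. The fraction that the gap took up of the group's range was above 0.71 in each.

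In WMW-H, the third library was the high one for Incenp (13.931 FPKM, others 12.06 to 12.39), Ube2c (66.734 FPKM, others 57.66 to 58.15) and Racgap1 (17.331 FPKM, others 15.37 to 15.74). The second WMW-H library was high for Pttg1 (34.878 FPKM, others 29.23 to 30.49) and the fifth for Cenpf (2.139 FPKM, others 1.467 to 1.625). In AOM/DSS, the fifth library was high for Cenpf (2.375 FPKM, others 1.783 to 1.933) and the third for Ncapg (2.949 FPKM, others 2.393 to 2.527). In Control, the first library was low for Foxm1 (6.528 FPKM, others 7.914 to 8.422) and Bub3 (31.816 FPKM, others 32.52 to 32.69), the fourth was low for Smc4 (11.572 FPKM, others 11.86 to 11.97) and the third was high for Anln (6.207 FPKM, others 5.662 to 5.816).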

How the results depend on the processing

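In AOM/DSS against Control, 10 members were higher and 11 lower; the counts were 4 and 17 with size factors, 4 and 20 with quantile normalization and 2 and 5 with a minimum log2 change of 0.32. In WMW-H against AOM/DSS (7 and 17), 13 were higher with size factors, 17 higher and 11 lower with quantile normalization, 2 and 7 with that minimum, and 4 higher with the GC trend removed. In WMW-H against Control (5 and 18), 3 were higher with size factors, 0 higher and 6 lower with that minimum, and 3 and 28 with the GC trend removed. The cause of these shifts was not tested.

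The log2 ratio of the summed FPKM, 0.022 in AOM/DSS against Control, was 0.072 in TPM, -0.099 with size factors and -0.123 with quantile normalization. In WMW-H against AOM/DSS, -0.082 became -0.135 in TPM, -0.13 in TPM without the pancreas and gland lists, -0.013 with size factors and 0.009 with quantile normalization. In WMW-H against Control, -0.060 became -0.112, -0.114 and -0.108 with size factors, quantile normalization and TPM without those lists.

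With quantile normalization, the log2 change in AOM/DSS against Control turned to -0.003 for Bub1b and -0.013 for Mad2l1. With the GC trend removed it turned to -0.0 for Bub1b and -0.112 for Ube2c there; in WMW-H against AOM/DSS to -0.091 for Top2a, -0.134 for Ccnb1, -0.154 for Mad2l1, -0.163 for Smc2 and -0.142 for Ect2; and in WMW-H against Control to -0.076 for Top2a, -0.099 for Ccna2, -0.147 for Cks2, -0.159 for Birc5, -0.121 for Tpx2 and -0.172 for Anln.

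With 1 library left out, 10 to 12 members were higher and 11 to 13 lower in AOM/DSS against Control, 7 to 9 and 15 to 18 in WMW-H against AOM/DSS, and 4 to 8 and 14 to 18 in WMW-H against Control, with the 8 without the third WMW-H library. Over 132 changes of single members, the exact rank-sum test ended 13 calls and added 5. Size factors ended 12 and added 15. Quantile normalization added 23 and ended 11, besides 2 that turned. Under the 30 alternatives other than the fold, the calls kept were 3 of 10 higher (Aurka, Incenp and Kif2c) and 11 of 11 lower in AOM/DSS against Control, 2 of 7 and 8 of 17 in WMW-H against AOM/DSS, and 2 of 5 and 9 of 18 in WMW-H against Control. The shares of all called genes kept are not given, so these counts do not set the members apart. Size factors, quantile normalization and removal of the GC trend moved the all-gene median down in both comparisons with Control, which favours lower calls.

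No pairing of libraries by replicate number was found, but a weak pairing or one in few genes could go unseen. Deviations of same-numbered libraries correlated at -0.0472 to 0.0298, and 1 of 15 libraries was closest to its own number. With the replicate block, counts were 11 higher and 11 lower in AOM/DSS against Control, 7 and 17 in WMW-H against AOM/DSS, and 5 and 18 in WMW-H against Control.

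Depth limits the precision of members with few fragments, those of low FPKM and short transcripts. A p above the threshold does not show that groups were alike.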
